A study of Mus musculus with 18 samples.

Results

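The cholesterol module described here comprised 29 genes, found by their gene names in a count table of 55487 genes. They were 18 enzymes of the mevalonate and sterol synthesis pathway, 4 genes of the SREBP2 machinery, 3 genes of sterol transfer, lysosomal release and storage, and 4 genes of the liver X receptor (LXR) and export arm. Each name was found in the table, and all 29 passed the expression filter. The genes were followed in mouse splenic natural killer (NK) cells that had lost or kept Acly, which encodes ATP-citrate lyase, the enzyme that makes cytosolic acetyl-CoA from citrate.

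Cells build cholesterol from acetyl-CoA through mevalonate, farnesyl pyrophosphate, squalene and lanosterol. When sterol in the endoplasmic reticulum is low, SCAP escorts the precursor of the transcription factor SREBP2 to the Golgi, where it is cleaved and then turns on the synthesis genes, while INSIG proteins hold the complex back when sterol is plentiful. Oxysterols activate LXR, which turns on the exporters ABCA1 and ABCG1 and the ubiquitin ligase MYLIP, which removes lipoprotein receptors.

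RNA was sequenced in 18 libraries, 3 in each of 6 groups. Mice of both genotypes carried Rosa YFP/YFP and the tamoxifen-inducible Ncr1 CRE-ERT2, a Cre driven from an NK-cell gene, were fed tamoxifen diet for 48 hours, and gave YFP-positive splenic NK cells sorted 5 days after its withdrawal. Knock-out (KO) mice also carried Acly fl/fl, and wild-type (WT) mice did not. In each genotype the cells were fresh, were primed with IL-15 (100 ng/ml, 72 hours), or were primed, washed and kept for 6 hours on plate-bound NKG2D at 20 ug/ml, named after an activating receptor of NK cells. The labels do not tie replicates to separate mice, so the p-values here describe variation among libraries that may be technical.

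Acly itself was lower in every knock-out library. It read 16, 15.3 and 25.5 CPM (each library's counts scaled to a common total) in fresh knock-out libraries, against 232, 254 and 265 CPM in fresh wild-type libraries, 41.4, 38.1 and 48.9 against 227, 280 and 262 CPM when primed and 39, 28.2 and 41.9 against 193, 170 and 128 CPM after NKG2D, so some Acly mRNA was left in the knock-out groups. Libraries held between 14772350 and 34367582 counts. Primed knock-out replicate 1 was the shallowest and had reads on 14698 genes, against 17885 or more in the others. All 10 NK markers passed 1 CPM in at least 1 library of every group and summed to 7220 CPM or more in each library, against at most 147 CPM for B-cell and 89 CPM for T-cell markers. Of the 10 monocyte, macrophage and neutrophil markers, Lyz2, S100a8, S100a9, Mpo and C1qa were at 0 in all cultured libraries. Cd68 was instead higher in primed than in fresh cells, by a log2 fold change of 1.69 in knock-out and 2.16 in wild type. CPM values are shares of the mRNA of a sorted population, so fewer cells of a kind and less RNA per cell cannot be told apart.

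The promoters show letters that the synthesis and export arms share or lack. RefSeq promoter windows (GRCm38.p6), from 250 bases before to 50 bases after a start site, were held for 23 of the 29 members. Both strands were searched for CCAAT, the letters bound by NF-Y, a factor known to act with SREBP, and for the SREBP-type letters TCACNCCAC. CCAAT stood in a window of 14 of 15 synthesis enzymes and 3 of 4 SREBP2 machinery genes, against 1 of 3 LXR and export genes and 41.1% of all 27025 genes of the same table. The SREBP-type letters were found in 1 member, Hmgcs1, and in 1.44% of all genes. Below are the 200 bases before the start of 4 members, 5′ to 3′ on the gene's strand, with matches to either set of letters in capitals (ATTGG is CCAAT on the other strand). Hmgcs1 and Sc5d stand for enzymes that were higher in cultured knock-out cells, Ebp for an enzyme with no genotype call, and Abca1 for an exporter that was lower.
Hmgcs1, chr13:119690151-119690350, plus strand: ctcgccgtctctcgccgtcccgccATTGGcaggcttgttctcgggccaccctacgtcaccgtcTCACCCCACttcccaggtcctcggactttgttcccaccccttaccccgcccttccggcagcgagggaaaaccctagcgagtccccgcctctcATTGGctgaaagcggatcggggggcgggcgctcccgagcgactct
Sc5d, chr9:42264301-42264500, minus strand: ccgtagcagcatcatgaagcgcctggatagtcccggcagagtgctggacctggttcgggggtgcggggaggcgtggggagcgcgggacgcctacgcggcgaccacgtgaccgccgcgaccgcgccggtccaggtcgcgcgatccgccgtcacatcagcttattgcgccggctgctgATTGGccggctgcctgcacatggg
Ebp, chrX:8193513-8193712, minus strand: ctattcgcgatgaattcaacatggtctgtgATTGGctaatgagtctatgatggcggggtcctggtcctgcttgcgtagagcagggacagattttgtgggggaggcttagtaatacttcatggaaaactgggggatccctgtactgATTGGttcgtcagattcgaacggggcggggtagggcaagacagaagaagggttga
Abca1, chr4:53159896-53160095, minus strand: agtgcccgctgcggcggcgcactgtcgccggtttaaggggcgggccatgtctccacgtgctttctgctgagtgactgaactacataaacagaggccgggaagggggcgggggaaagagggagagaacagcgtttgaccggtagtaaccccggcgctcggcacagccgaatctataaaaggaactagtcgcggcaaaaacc
Hmgcs1 and Ebp each hold 2 CCAAT matches in these stretches, Sc5d holds 1 and Abca1 holds none. Ebp thus shares these letters with Hmgcs1 and Sc5d. A match describes the letters and is not a measured binding site.

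Between fresh cells and cells cultured with IL-15, synthesis and export moved in opposite directions in both genotypes. No group cultured without IL-15 was analysed here, so the part of IL-15 apart from culture itself was not tested. Priming here stands for IL-15 and the time in culture together. All 18 synthesis enzymes were higher in primed than in fresh cells, in knock-out and in wild type alike, and all 4 LXR and export genes were lower. Of all 14864 tested genes, 23% were higher and 25.7% lower in knock-out, and 26.5% higher and 27.2% lower in wild type (edgeR quasi-likelihood test, Benjamini-Hochberg adjusted p under 0.05). The median log2 fold change of the enzymes was 3.14 in knock-out and 2.80 in wild type, where that of all genes was -0.06 in each.

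The steepest rise was that of Sqle, squalene epoxidase, which adds oxygen to squalene before ring closure. Sqle read 261, 268 and 249 CPM in primed knock-out libraries, against 2.22, 1.5 and 1.12 CPM in fresh knock-out libraries (log2 fold change 7.35, SE 0.25, adjusted p = 5.7e-13). In wild type it read 109, 125 and 158 CPM primed, against 1.78, 2.67 and 1.52 CPM fresh (6.03, SE 0.24, adjusted p = 3.36e-12). Sqle was thus close to absent from every fresh library and well measured in every primed one. Idi1, which isomerises the first activated isoprene unit, rose by 6.29 in knock-out and 4.76 in wild type, Cyp51, the lanosterol demethylase, by 6.14 and 4.93, and Fdps, which builds farnesyl pyrophosphate, by 5.61 and 4.97. Among the enzymes Ebp, a sterol isomerase, and Dhcr7, a late sterol reductase, had the smallest rises in both genotypes. Ebp rose by 0.36 in knock-out and 0.70 in wild type, and Dhcr7 by 1.40 and 1.04.

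Set against gene length, the order of the levels changed with culture. Per kilobase of annotated exon, Ebp was the most abundant of the 18 enzymes in fresh cells, at 54 ± 4.44 CPM per kb in knock-out and 49.8 ± 3.9 in wild type (SD, n = 3 each), and Sqle, at 0.291 ± 0.101 and 0.359 ± 0.109, and Tm7sf2, at 0.396 ± 0.0278 and 0.41 ± 0.149, were the lowest of all 29 members, with a gap near their spread in knock-out and within it in wild type. In primed knock-out cells Hmgcs1, the synthase that makes 3-hydroxy-3-methylglutaryl-CoA, led at 190.0 ± 6.27 CPM per kb, with Fdps at 186 ± 23.7, a gap within their spread, and Idi1 at 156 ± 1.48. In primed wild-type cells Fdps led at 116 ± 20.5, and Ebp at 80.8 ± 8.44 and Hmgcs1 at 71 ± 15.7 lay within each other's spread. After NKG2D Ebp was first in both genotypes, at 83.4 ± 8.29 CPM per kb in knock-out and 74.9 ± 7.51 in wild type.

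**Figure D1:**
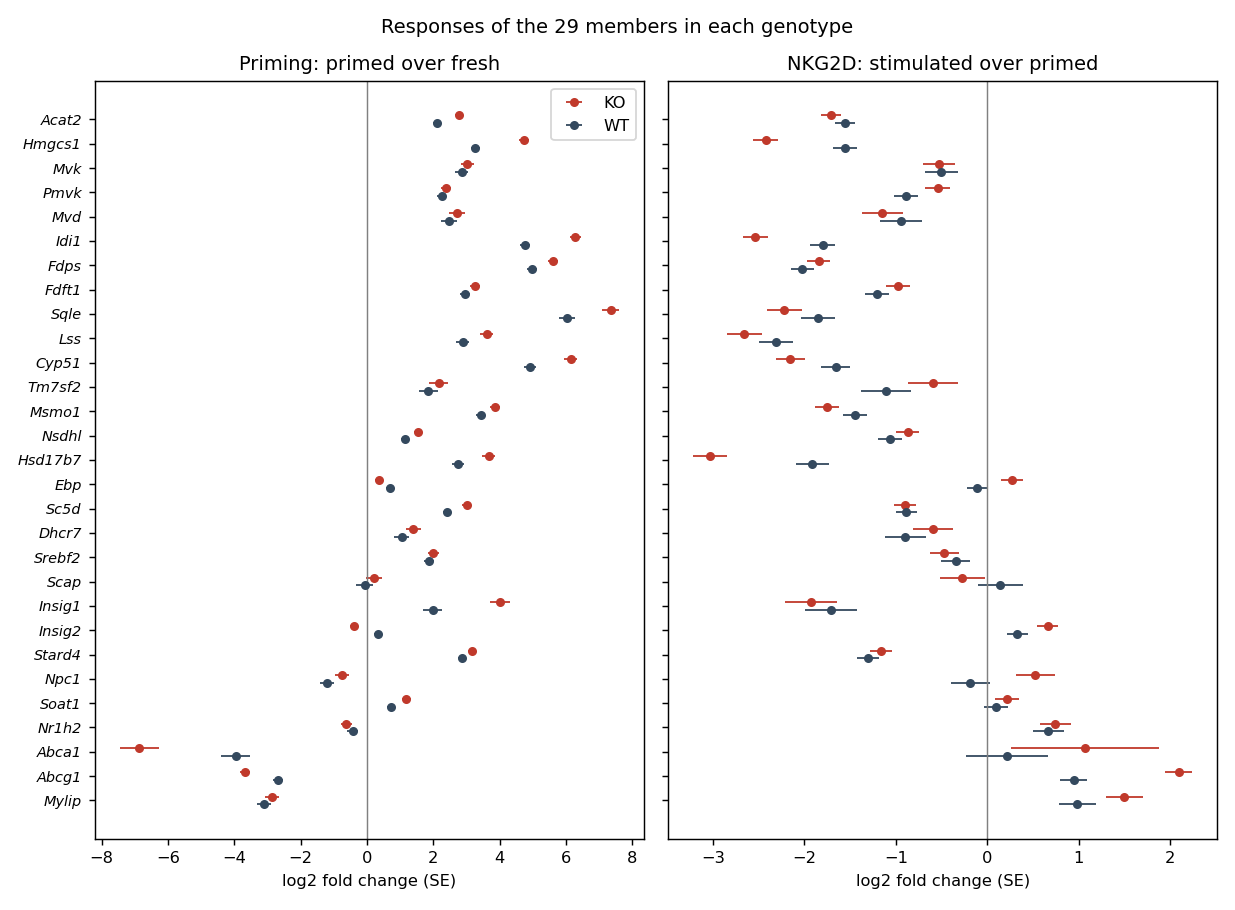
Log2 fold changes (points) with their standard errors (bars) of the 29 members, for primed over fresh cells and for NKG2D-stimulated over primed cells, in knock-out (red) and wild type (dark). All 18 synthesis enzymes lie right of 0 on priming and most lie left of 0 after NKG2D, whereas Abcg1 and Mylip lie on the opposite sides.

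Among the SREBP2 machinery, Srebf2, the gene of the factor itself, rose on priming by 2.00 in knock-out and 1.87 in wild type. Insig1, which is both a brake on SREBP cleavage and a known SREBP target, rose by 4.01 and 1.98. Scap, the escort of SREBP2, had log2 fold changes of 0.20 in knock-out and -0.07 in wild type (edgeR adjusted p = 0.522 and 0.822). Insig2, the paralogue of Insig1, fell by 0.38 in knock-out and rose by 0.32 in wild type, and both calls were lost under some settings. With the compared libraries alone the adjusted p was 0.0507 in knock-out and 0.0864 in wild type, and with low counts left unfiltered 0.148 and 0.193. The knock-out call was also lost without fresh replicate 2 or 3 or primed replicate 1 (adjusted p 0.0583 to 0.0941), and the wild-type call without fresh replicate 1 or 2 or primed replicate 2 (0.083 to 0.158). Of the sterol handling genes, Stard4, a sterol transfer protein and known SREBP2 target, rose by 3.16 and 2.87, and Soat1, which esterifies sterol for storage, by 1.18 and 0.73. Npc1, which releases sterol from lysosomes, fell by 0.74 in knock-out and 1.20 in wild type.

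The exporters went down with priming. Abcg1 read 38.7, 42.7 and 39 CPM in primed knock-out libraries, against 540, 505 and 494 CPM in fresh knock-out libraries (-3.68, SE 0.16, adjusted p = 6.51e-12). In wild type it read 99.4, 86.4 and 97.1 CPM primed, against 656, 577 and 572 CPM fresh (-2.67, SE 0.15, adjusted p = 1.87e-10). In fresh cells Abcg1 was the most abundant of the 29 members per kilobase, at 70.3 ± 3.29 CPM per kb in knock-out and 82.4 ± 6.46 in wild type. Abca1 fell by 6.87 in knock-out and 3.96 in wild type, and Mylip by 2.88 and 3.10. Nr1h2, which encodes LXR beta, fell by 0.63 and 0.43. Of 6 tested monocyte, macrophage and neutrophil markers, 5 fell and 1 rose with priming in knock-out, and 4 fell and 1 rose in wild type. Of 5 tested erythroid markers, 4 fell in knock-out and 5 in wild type. Over all genes 23% rose and 25.7% fell in knock-out, and 26.5% rose and 27.2% fell in wild type. The part of these markers in the falls of Abca1, Abcg1, Mylip and Npc1 was not tested.

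Most of these genes moved back in the NKG2D-stimulated cells. Those cells had also been washed after IL-15 and cultured 6 hours longer, and no washed, unstimulated group was analysed here, so stimulation, loss of IL-15 and time cannot be told apart. Of the 18 enzymes 16 fell in knock-out and 16 in wild type relative to primed cells, where 16.9% and 10.7% of all genes did. Abcg1, Mylip and Nr1h2 rose in both genotypes, where 18.4% of all genes rose in knock-out and 9.2% in wild type. The enzyme medians were -1.43 in knock-out and -1.33 in wild type. Hmgcs1 read 157, 160 and 173 CPM in stimulated knock-out libraries, against 849, 906 and 870 CPM in primed knock-out libraries (-2.42, SE 0.14, adjusted p = 1.73e-09). In wild type it read 126, 107 and 99 CPM stimulated, against 250, 393 and 335 CPM primed (-1.56, SE 0.13, adjusted p = 4.11e-07). Every stimulated library of Hmgcs1 lay below every primed one.

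The enzymes not called were Ebp in both genotypes (0.27, adjusted p = 0.0797 in knock-out and -0.11, adjusted p = 0.558 in wild type), Tm7sf2, a sterol reductase, in knock-out (-0.60, adjusted p = 0.0962) and Mvk, mevalonate kinase, in wild type (-0.50, adjusted p = 0.059). Hsd17b7, a sterol ketoreductase, fell most in knock-out, by 3.03, and Lss, which closes the ring to lanosterol, fell most in wild type, by 2.31. Abcg1 rose by 2.09 in knock-out and 0.94 in wild type, and Mylip by 1.496 and 0.98. Abca1 had log2 fold changes of 1.07 (SE 0.81) in knock-out and 0.21 (SE 0.45) in wild type that did not pass. Without primed knock-out replicate 3, which held 6 of the 7 primed knock-out reads, the knock-out value was 3.03 (adjusted p = 0.0499). Insig1 fell by 1.93 and 1.71. Srebf2 had a log2 fold change of -0.47 in knock-out (adjusted p = 0.0257) and -0.35 in wild type (adjusted p = 0.132). The knock-out call of Srebf2 was lost without primed replicate 2 or stimulated replicate 2 or 3 (-0.49 to -0.32, adjusted p 0.058 to 0.146).

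Summed over the 18 enzymes, the pathway held 436.9 ± 16.1 CPM in fresh knock-out and 391.8 ± 17.5 CPM in fresh wild-type libraries, 4898 ± 210 and 2638 ± 338 CPM in primed ones, and 1565 ± 70.2 and 1029 ± 74.4 CPM after NKG2D (SD, n = 3 each). The primed sum was 11.2 times the fresh one in knock-out and 6.73 times in wild type, and the stimulated sum was 31.9% of the primed one in knock-out and 39% in wild type. These sums describe chosen genes and were given no test.

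In fresh cells no member was called between the genotypes. By edgeR 0 of 29 members passed, where 0.0673% of all genes did. At an unadjusted p under 0.05, 2 members were higher and 2 lower, near the share over all genes (1903 of 14864 in either direction). DESeq2 called 0, and limma voom called 2 higher and 2 lower. For limma voom the share over all genes is not given here. The median log2 fold change of the enzymes was 0.13. Npc1 read 52.1, 47.4 and 46.2 CPM in knock-out libraries, against 79.3, 71.6 and 66.3 CPM in wild-type libraries (-0.58, SE 0.21, adjusted p = 0.259). Mylip read 54, 50.6 and 42.3 CPM in knock-out, against 64.9, 63.3 and 78.2 CPM in wild type (-0.49, SE 0.19, adjusted p = 0.286). Dhcr7 read 51.2, 55.9 and 56.7 CPM in knock-out, against 37.7, 35.8 and 40.3 CPM in wild type (0.53, SE 0.22, adjusted p = 0.333). The libraries of both genotypes stood apart for each of these 3 genes. Insig2 also stood apart, at 24.8, 26.4 and 27.9 CPM in knock-out against 19.7, 21.1 and 23.9 CPM in wild type (0.29, SE 0.12, adjusted p = 0.304).

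With the 6 fresh libraries fitted alone, Dhcr7, Npc1 and Mylip passed (edgeR adjusted p = 0.0166, 0.01 and 0.0364), where 5.86% of genes did. The authors' deposited table of fresh cells had Dhcr7 and Insig2 higher and Mylip and Npc1 lower at adjusted p under 0.05, where 7.14% of its genes were higher and 7.15% lower. Hmgcs1 (31.7, 34.7 and 32.1 CPM in knock-out, 33.5, 37 and 30.8 CPM in wild type), Stard4 (14.1, 14.9 and 15.9 and 13.5, 15.9 and 15.4 CPM) and Soat1 (28.3, 25.6 and 25.9 and 29, 27.8 and 26.2 CPM) overlapped between the genotypes. Insig1 did not, at 32.3, 28.9 and 25 CPM in knock-out and 46.4, 45.5 and 34 CPM in wild type (-0.55, adjusted p = 0.432). The same held for Abcg1, at 540, 505 and 494 CPM in knock-out and 656, 577 and 572 CPM in wild type (-0.23, adjusted p = 0.531), and for Abca1, at 12, 15.5 and 16.2 and 23.8, 17.7 and 16.9 CPM (-0.42, adjusted p = 0.689). In all, 3 members had every knock-out library above and 5 had every one below the wild-type libraries, where 14.1% and 12.8% of all genes did. Idi1 (8.43, 6.49 and 6.11 CPM in knock-out, 6.16, 5.77 and 6.39 CPM in wild type) and Srebf2 (35.5, 36.9 and 37 and 28.5, 31.5 and 38.5 CPM) overlapped. In these libraries the erythroid markers summed to 16.4 to 18.1 CPM in knock-out and 115 to 201 CPM in wild type, with none of the 6 at 0 throughout. The 10 monocyte, macrophage and neutrophil markers summed to 17.5 to 17.9 CPM in knock-out, with Fcgr1 and Mpo at 0, and to 21.8 to 28.8 CPM in wild type. The part of either marker list in these differences was not tested.

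After priming, most of the synthesis pathway was higher in knock-out than in wild-type cells, and both exporters were lower. Of the 18 enzymes 13 rose, where 7% of all genes did, with a median log2 fold change of 0.74 against -0.02 for all genes. The other 5 were Mvk (0.53, adjusted p = 0.0528), Pmvk, phosphomevalonate kinase (0.21, adjusted p = 0.307), Mvd, the decarboxylase that follows (0.47, adjusted p = 0.166), Tm7sf2 (0.27, adjusted p = 0.541) and Ebp (-0.22, adjusted p = 0.203). Mvk, Pmvk and Mvd are the consecutive enzymes that turn mevalonate into the activated isoprene unit. edgeR called none of them, but all 3 were higher in the authors' deposited primed table (log2 fold changes 0.66, 0.27 and 0.68, adjusted p = 3.85e-05, 0.0264 and 0.000293). DESeq2 called 14 and limma voom 15 of the 18 enzymes higher, and the shares over all genes in those fits are not given here.

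Idi1 had the largest difference of the 18 enzymes. It read 543, 552 and 543 CPM in primed knock-out libraries, against 140, 194 and 163 CPM in primed wild-type libraries (1.72, SE 0.13, adjusted p = 3.82e-07). Hmgcs1 read 849, 906 and 870 CPM in knock-out, against 250, 393 and 335 CPM in wild type (1.42, SE 0.13, adjusted p = 3e-06). For both genes the lowest knock-out library was above the highest wild-type library by more than the range of either group. Acat2, the cytosolic thiolase that joins acetyl-CoA units at the entry of the pathway, read 195, 200 and 205 CPM in knock-out, against 95.1, 127 and 126 CPM in wild type (0.79, SE 0.11, adjusted p = 0.000122). Sc5d, a late desaturase, read 274, 300 and 284 CPM, against 140, 181 and 174 CPM (0.79, SE 0.12, adjusted p = 0.000214). Sqle read 261, 268 and 249 CPM in knock-out, against 109, 125 and 158 CPM in wild type (0.99, SE 0.18, adjusted p = 0.0015). Groups did not overlap for Acat2, Sc5d or Sqle. Cyp51 rose by 1.03, Hsd17b7 by 0.99, Lss by 0.93 and Dhcr7 by 0.88. Fdps rose by 0.69, Msmo1, the C4 methylsterol oxidase, by 0.62, Fdft1, squalene synthase, by 0.55 and Nsdhl, a sterol dehydrogenase, by 0.40.

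**Figure D2:**
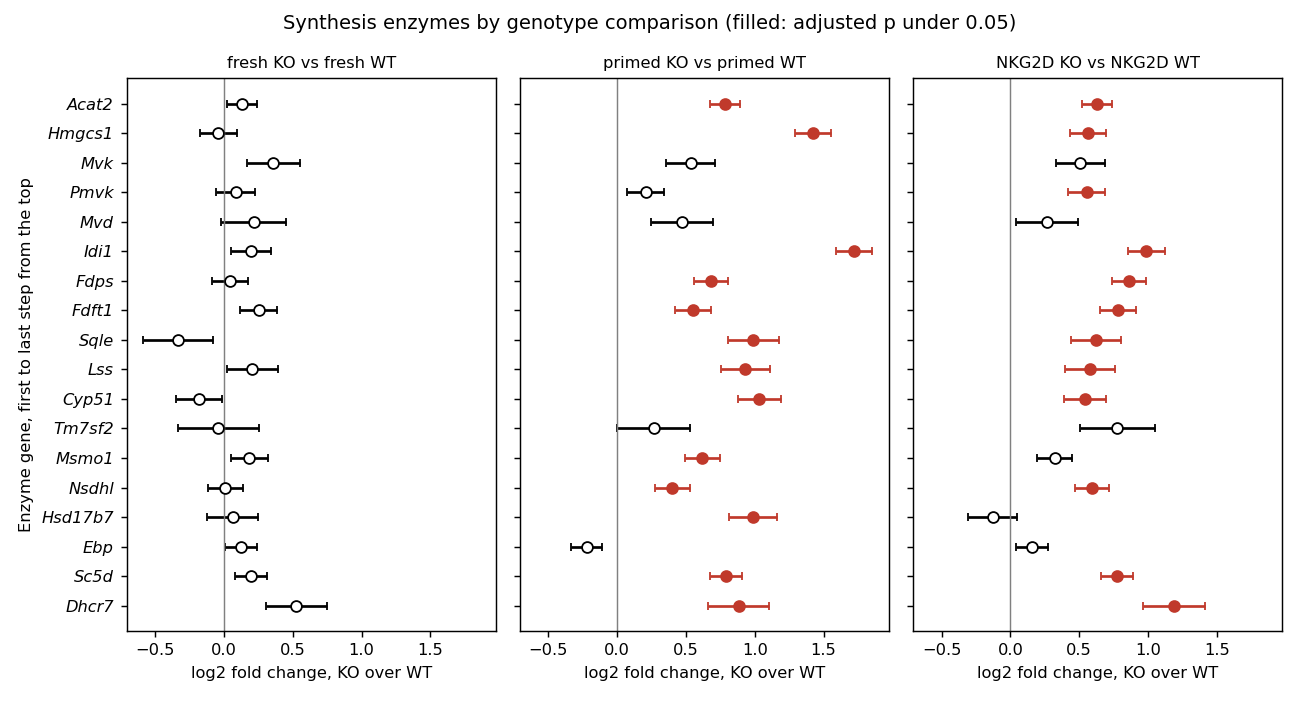
Log2 fold change of knock-out over wild type (points) with its standard error (bars) for the 18 synthesis enzymes, in pathway order, in fresh, primed and NKG2D-stimulated cells. Filled red points passed the test, which 0 did when fresh, 13 when primed and 12 when stimulated.

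Insig1 was higher in primed knock-out cells, like most enzymes, and Insig2 was lower. Insig1 read 521, 482 and 389 CPM in primed knock-out libraries, against 137, 145 and 215 CPM in primed wild-type libraries (1.49, SE 0.28, adjusted p = 0.00166), with no overlap. Insig2 read 19.5, 19.9 and 21.4 CPM in knock-out, against 25.6, 31.1 and 24.1 CPM in wild type (-0.41, SE 0.12, adjusted p = 0.0247), also with no overlap. The Insig2 call was lost with primed libraries alone (adjusted p = 0.134), with low counts left unfiltered (0.224), and without replicate 1 or 2 of either genotype (adjusted p 0.0527 to 0.17). Srebf2 read 137, 154 and 145 CPM in knock-out, against 122, 105 and 134 CPM in wild type (0.28, adjusted p = 0.242), so its libraries stood apart although edgeR did not call it. It passed with limma voom (0.37, adjusted p = 0.0266) and in the authors' deposited table (0.41, adjusted p = 0.02). Scap was not called (0.29, adjusted p = 0.45).

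Of the sterol handling genes 1 rose by edgeR. Stard4 read 124, 141 and 137 CPM in primed knock-out, against 92.7, 130 and 104 CPM in primed wild type, with overlap (0.30, adjusted p = 0.0872). Stard4 passed with limma voom (0.39, adjusted p = 0.00672), without wild-type replicate 2 (0.46, adjusted p = 0.0169) and in the authors' deposited table (adjusted p = 0.000185). Soat1 read 63.6, 62.7 and 54.9 CPM in knock-out, against 39.8, 45.9 and 51.8 CPM in wild type (0.40, SE 0.13, adjusted p = 0.047), with no overlap. The Soat1 call was lost without replicate 1 or 2 of either genotype (adjusted p 0.1 to 0.183), with primed libraries alone (0.109) and with low counts left unfiltered (0.0678). Npc1 read 38.3, 27.9 and 20.9 CPM in knock-out and 23.4, 27.2 and 43.6 CPM in wild type, with overlap (-0.12, adjusted p = 0.747).

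Of the 4 LXR and export genes 2 fell in primed knock-out cells, where 8.52% of all genes did. Abcg1 read 38.7, 42.7 and 39 CPM in knock-out, against 99.4, 86.4 and 97.1 CPM in wild type (-1.23, SE 0.15, adjusted p = 3.74e-05). Abca1 had 0, 1 and 6 reads in the knock-out libraries, against 32, 18 and 40 reads in the wild-type libraries (-3.33, SE 0.65, adjusted p = 0.00238, 95% interval -4.71 to -1.95). Neither gene overlapped between the genotypes. With so few reads the size for Abca1 was loose, from -5.30 without knock-out replicate 3 to -2.88 without knock-out replicate 1, and it did not pass with primed libraries alone (adjusted p = 0.0728). Mylip, a further LXR target, overlapped between the genotypes, at 5.3, 8.25 and 6.35 CPM in knock-out against 9.73, 6.16 and 8.05 CPM in wild type (-0.26, adjusted p = 0.412). Nr1h2 was not called (-0.10, adjusted p = 0.726). The 10 monocyte, macrophage and neutrophil markers summed to 37.5 to 41.3 CPM in primed knock-out and 53.3 to 67.3 CPM in primed wild-type libraries, 7 of them at 0 in each group. Nearly all of this was Cd68, at 37.2, 39.2 and 41.1 CPM in knock-out and 51.8, 65.7 and 52.4 CPM in wild type. Of the 6 of these markers tested, Cd68 (-0.53) and Cd14 (-2.94) fell and 0 rose. T-cell markers summed to 32.4 to 39.8 CPM in knock-out and 41.6 to 76.1 CPM in wild type, with Cd3g the 1 of 5 tested that fell, and B-cell markers to 15.8 to 34.8 CPM in knock-out and 35.8 to 73.7 CPM in wild type, with Ms4a1 at 0 in both. Of the 10 NK markers 3 rose and 2 fell. The part of these markers in the primed differences was not tested.

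**Figure D3:**
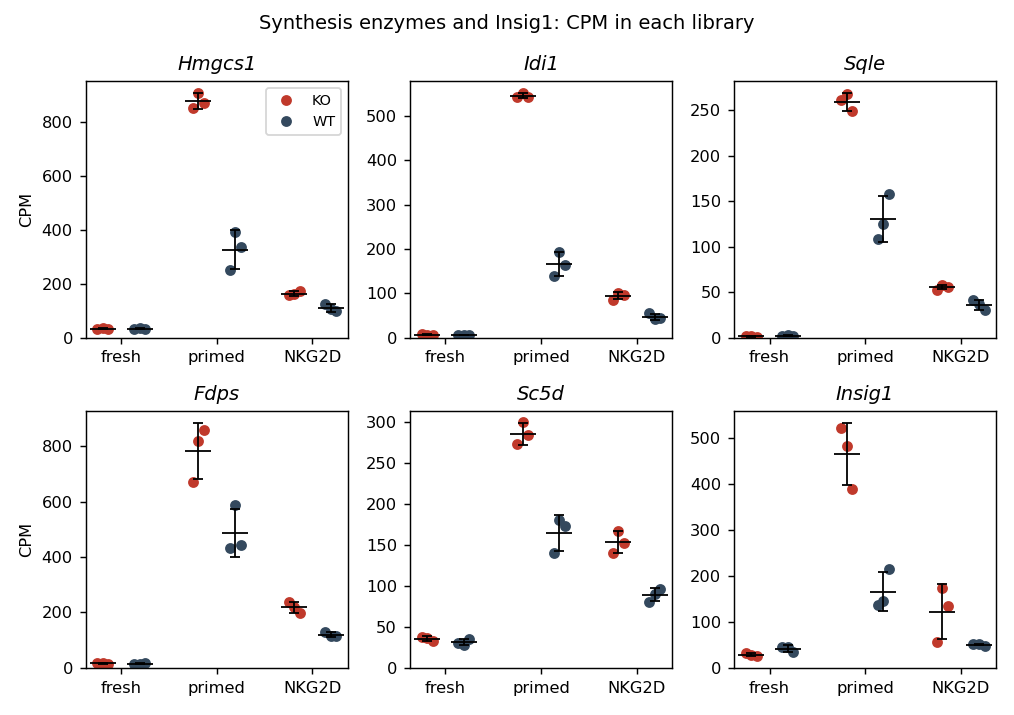
CPM in each library (points) with the mean and SD of 3 libraries (black) for 5 synthesis enzymes and Insig1, by condition, knock-out (red) left of wild type (dark). In primed cells every knock-out library lies above every wild-type library for all 6 genes, as for 13.9% of all genes. Among stimulated knock-out libraries Insig1 ranges from 57 to 174 CPM.

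After NKG2D the knock-out stayed above wild type along the synthesis pathway. Of the 18 enzymes 12 rose, where 8.75% of all genes did, with a median log2 fold change of 0.59. Counting all 29 members, 15 rose in primed and 15 in stimulated knock-out cells, and 13 were the same genes, or 86.7% of either set. The matching overlap over all genes was not computed. By edgeR Msmo1 and Hsd17b7 passed when primed and not when stimulated, and Pmvk and Stard4 when stimulated and not when primed. In the authors' deposited tables Msmo1, Pmvk and Stard4 passed in both conditions. Of these 4, Hsd17b7 was the 1 gene whose NKG2D response was called different between the genotypes.

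Idi1 read 85.5, 101 and 96.3 CPM in stimulated knock-out libraries, against 54.9, 43 and 44.5 CPM in stimulated wild-type libraries (0.99, SE 0.13, adjusted p = 8.89e-05). Fdps read 237, 218 and 199 CPM in knock-out, against 130, 114 and 115 CPM in wild type (0.86, SE 0.13, adjusted p = 0.00017). Sc5d read 140, 167 and 153 CPM in knock-out, against 81.1, 90.7 and 96.5 CPM in wild type (0.78, SE 0.12, adjusted p = 0.000231). None of these 3 genes overlapped between the groups. Among the 29 members, 17 had every knock-out library above and 2 every one below the wild-type libraries, where 17.6% and 17.1% of all genes did. Dhcr7 had the largest difference of the enzymes, at 126, 81.6 and 78.4 CPM in knock-out against 60.8, 35.2 and 29.1 CPM in wild type (1.19, SE 0.23, adjusted p = 0.00154), replicate 1 being the highest of each group. Hmgcs1 read 157, 160 and 173 CPM, against 126, 107 and 99 CPM (0.56, SE 0.13, adjusted p = 0.00673). Sqle read 52.8, 58 and 56.3 CPM, against 41.6, 36.8 and 30.1 CPM (0.62, SE 0.18, adjusted p = 0.0254). These genes did not overlap either, but the Sqle call was lost without replicate 2 or 3 of either genotype (adjusted p 0.0721 to 0.114). Fdft1 rose by 0.79, Acat2 by 0.63, Nsdhl by 0.59, Lss by 0.58, Pmvk by 0.56 and Cyp51 by 0.54. Not called were Tm7sf2 (0.78, adjusted p = 0.0584), Mvk (0.51, adjusted p = 0.0589), Msmo1 (0.32, adjusted p = 0.0936), Mvd (0.27, adjusted p = 0.467), Ebp (0.16, adjusted p = 0.39) and Hsd17b7 (-0.13, adjusted p = 0.681).

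Insig1 read 57, 174 and 134 CPM in stimulated knock-out libraries, against 51.4, 52.2 and 48.5 CPM in stimulated wild-type libraries (1.26, SE 0.28, adjusted p = 0.0045). Knock-out replicate 1 lay close to the wild-type libraries and the other two far above them. The log2 fold change was 0.89 without knock-out replicate 2 and 1.60 without knock-out replicate 1. Srebf2 (120, 88.9 and 106 CPM in knock-out, 113, 100 and 70.9 CPM in wild type) overlapped and was not called (0.15, adjusted p = 0.559), and neither were Scap (-0.12, adjusted p = 0.783) and Insig2 (-0.08, adjusted p = 0.7).

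Stard4 and Soat1 rose in stimulated knock-out cells. Stard4 read 58.5, 60.8 and 59.7 CPM in knock-out, against 41.8, 46.8 and 43.5 CPM in wild type (0.44, SE 0.12, adjusted p = 0.0133), with no overlap, and lost its call without wild-type replicate 1 (adjusted p = 0.0584). Soat1 read 60.9, 74.5 and 74.5 CPM, against 40.8, 53.5 and 53 CPM (0.51, SE 0.13, adjusted p = 0.0109), and lost its call without knock-out replicate 2 or 3 or wild-type replicate 1 (adjusted p 0.0579 to 0.0619) and with stimulated libraries alone (0.0546). Npc1 read 35.9, 43.4 and 45.9 CPM in knock-out, against 27.3, 28.6 and 27.2 CPM in wild type (0.59, adjusted p = 0.0591). The Npc1 libraries stood apart, and it passed with stimulated libraries alone (edgeR adjusted p = 0.0267) and with DESeq2 (0.0376). Npc1 also passed in the authors' deposited table (0.655, adjusted p = 0.00192).

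On the export side Abca1 was the 1 gene of 4 to fall, where 9.47% of all genes did. It had 10, 0 and 8 reads in stimulated knock-out libraries, against 42, 31 and 36 reads in stimulated wild-type libraries (-2.47, SE 0.54, adjusted p = 0.00439). Abcg1 read 148, 200 and 164 CPM in knock-out, against 134, 191 and 220 CPM in wild type (-0.09, adjusted p = 0.74, 95% interval -0.39 to 0.22). Mylip read 16, 20.1 and 20.3 CPM in knock-out, against 12.5, 15.7 and 19.2 CPM in wild type (0.25, adjusted p = 0.415). The authors' deposited NKG2D table had Mylip higher in knock-out (0.364, adjusted p = 0.0498), where 23.1% of its genes were higher. Abcg1, Mylip and Nr1h2 (-0.03, adjusted p = 0.944) overlapped between the genotypes, and Abca1 did not. In these libraries the monocyte, macrophage and neutrophil markers summed to 90.8 to 110.0 CPM in knock-out and 48.9 to 70 CPM in wild type, with 7 and 6 of 10 at 0. Cd68 itself read 109, 90.2 and 91.6 CPM in knock-out, against 46.8, 59.1 and 68.8 CPM in wild type. Of the 6 of these markers tested, Cd68 rose (0.73) and Cd14 fell (-1.87). T-cell markers summed to 26.8 to 27.2 CPM in knock-out and 41.7 to 66.9 CPM in wild type, with Cd3d and Cd3g, 2 of 5 tested, lower, and B-cell markers to 26.6 to 41.3 CPM in knock-out and 56.2 to 147 CPM in wild type, with Cd74 lower (-1.48) and Ms4a1 and Pax5 at 0 in both. Of the 10 NK markers 2 rose and 4 fell, among them Prf1, perforin (-1.65). The part of these markers in the differences after NKG2D was not tested.

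**Figure D4:**
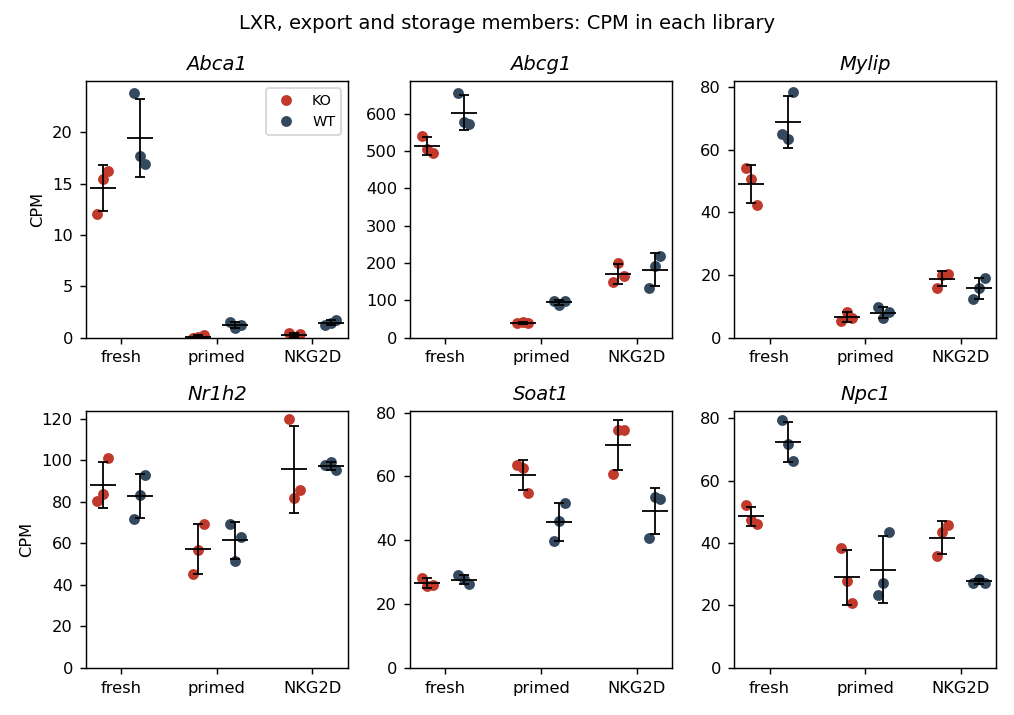
CPM in each library (points) with the mean and SD of 3 libraries (black) for members of the export and sterol handling arms, by condition, knock-out (red) left of wild type (dark). Abca1 and Abcg1 are higher in fresh than in primed cells, and Abcg1 partly returns after NKG2D in both genotypes.

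The authors' deposited tables of the cultured comparisons list all 29 members. At adjusted p under 0.05 the authors' deposited primed table had 16 enzymes higher and 0 lower, where 18% of its genes were higher and 13.2% lower. Their deposited NKG2D table had 15 enzymes higher and 0 lower, where 23.1% and 22.4% were. Besides Mvk, Pmvk and Mvd when primed, the enzymes that edgeR did not call and the authors' deposited NKG2D table did were Mvk (0.38, adjusted p = 0.00543), Tm7sf2 (0.80, adjusted p = 0.00254) and Msmo1 (0.43, adjusted p = 0.000633).

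Whether the genotypes responded differently was tested as the difference of 2 differences. The priming response differed for 12 of 29 members, where 10.5% of all genes had such a difference. In 9 it was positive (4.08% of all genes) and in 3 negative (6.41%). The positive ones were Insig1 (2.03, SE 0.39, adjusted p = 0.00412), Idi1 (1.53, SE 0.20), Hmgcs1 (1.46, SE 0.19), Sqle (1.32, SE 0.31), Cyp51 (1.21), Hsd17b7 (0.92), Acat2 (0.66), Fdps (0.64) and Sc5d (0.60). The negative ones were Abca1 (-2.91, SE 0.78), Abcg1 (-1.003, SE 0.21) and Insig2 (-0.70, SE 0.17). For 8 enzymes and Insig1 the rise on priming was thus larger in knock-out cells, and for both exporters the fall was deeper. These tests use the same primed libraries as the genotype comparison of primed cells. The Fdps call was lost in 8, that of Abca1 in 6 and that of Sc5d in 5 of the 12 fits that left out 1 library. Mylip (0.23, adjusted p = 0.652, 95% interval -0.36 to 0.82) and Srebf2 (0.12, adjusted p = 0.777) were not called.

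The NKG2D response differed for 4 members, where 3.55% of all genes had such a difference. Abcg1 rose more in the knock-out (1.15, SE 0.21, adjusted p = 0.00538), where 1.49% of all genes had a positive difference. Hsd17b7 (-1.12, SE 0.25, adjusted p = 0.0202), Hmgcs1 (-0.86, SE 0.19, adjusted p = 0.0162) and Idi1 (-0.73, SE 0.19, adjusted p = 0.0361) fell more in the knock-out, where 2.07% had a negative one. In the separate genotype comparison of primed cells, the knock-out was lower for Abcg1 and higher for these enzymes. With the 12 primed and stimulated libraries fitted alone 1 member passed, and the share over all genes in that fit is not given here. The Idi1 call was lost in 10 of the 12 fits that left out 1 library. Hsd17b7 read 72.2, 68.9 and 76.4 CPM in primed knock-out and 32.4, 40.2 and 37.1 CPM in primed wild type, and 9.73, 10.2 and 6.65 CPM in stimulated knock-out and 12, 8.73 and 8.29 CPM in stimulated wild type. Its groups stood apart when primed and overlapped when stimulated.

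Synthesis was set against export in each library as the mean log2 CPM of the 18 enzymes minus that of Abca1, Abcg1 and Mylip, a description with no test. The difference was -2.23, -2.35 and -2.35 in fresh knock-out libraries, against -2.97, -2.72 and -2.72 in fresh wild type. In primed libraries it was 5.9, 5.56 and 5.25 in knock-out, against 2.97, 3.77 and 3.28 in wild type. After NKG2D it was 2.62, 3.07 and 2.37 in knock-out, against 1.79, 1.24 and 0.92 in wild type. Its zero is set by the choice of genes, so only differences between libraries can be read. Every primed library lay above every stimulated one of its genotype, every stimulated one above every fresh one, and in all 3 conditions each knock-out library lay above each wild-type library. In fresh libraries the mean enzyme level was 3.77 to 3.92 in knock-out and 3.69 to 3.8 in wild type, which overlap, and the mean export level was 6.13 to 6.2 in knock-out and 6.44 to 6.65 in wild type, which do not. Abca1 is near 0 reads in cultured knock-out cells, so the size of the difference there depends on the count added before taking logs. After NKG2D the mean export level was 2.81 to 3.48 in knock-out and 3.69 to 4.29 in wild type. That gap rests mainly on Abca1, because Abcg1 (-0.09) and Mylip (0.25) were not called and overlapped between the genotypes there.

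**Figure D5:**
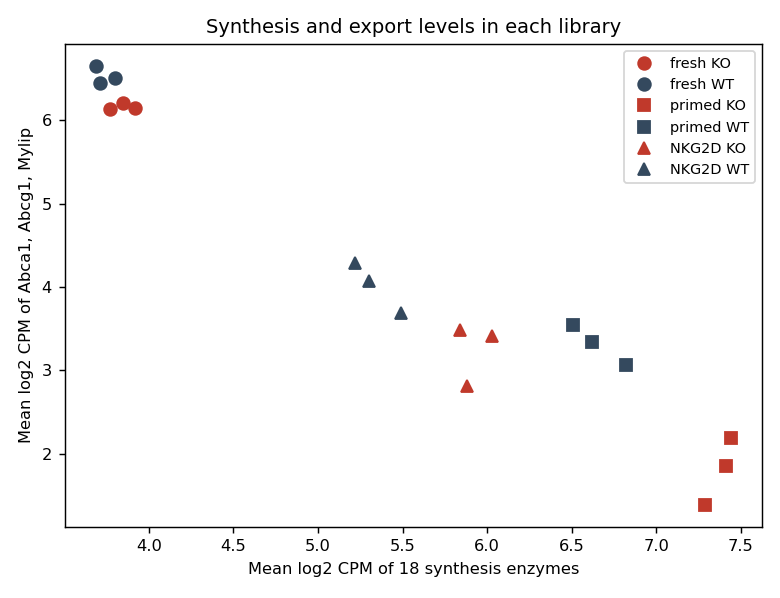
Mean log2 CPM of 18 synthesis enzymes and of Abca1, Abcg1 and Mylip in each of the 18 libraries, with knock-out in red and wild type in dark and a marker shape for each condition. Fresh libraries have the lowest synthesis and highest export levels, and primed knock-out libraries the highest synthesis and lowest export levels.

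Among further genes of the pathway, calls are set against all genes tested, of which 7% rose and 8.52% fell in primed knock-out cells and 8.75% rose and 9.47% fell after NKG2D. Of 18 genes of isoprenoid and other synthesis branches, 1 rose and 0 fell in primed knock-out cells by edgeR (median log2 fold change -0.01), and 2 rose and 1 fell after NKG2D (median -0.04). Lbr, which has the same sterol reductase activity as Tm7sf2 beside its role in the nuclear envelope, read 663, 689 and 620 CPM in primed knock-out, against 439, 476 and 479 CPM in primed wild type (0.50, SE 0.08, adjusted p = 0.000528). It also rose after NKG2D, by 0.58. Nus1, of dolichol synthesis, fell by 0.58 after NKG2D. Of 15 tested genes of SREBP processing and sterol-regulated degradation, 1 fell in primed cells. This was Rnf145, a sterol-responsive ubiquitin ligase and known LXR target, at 6.9, 11.4 and 14.7 CPM in knock-out against 22.2, 22.1 and 23.2 CPM in wild type (-1.03, SE 0.22, adjusted p = 0.00452). After NKG2D 0 of the 15 passed by edgeR, with 0 at an unadjusted p under 0.05, 0 by DESeq2, and 1 higher and 3 lower by limma voom. Mbtps2, a protease that cleaves SREBP, was not called in primed cells (0.72, adjusted p = 0.0524).

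Of 20 tested genes of lipoprotein uptake and sterol transport, 1 rose and 1 fell in primed cells, and 6 rose and 2 fell after NKG2D (median log2 fold change 0.33), the primed counts being near the shares over all genes. Osbpl2, a relative of the oxysterol-binding protein, read 27.3, 31.7 and 33.5 CPM in stimulated knock-out, against 18.9, 16.8 and 14.9 CPM in stimulated wild type (0.87, SE 0.16, adjusted p = 0.00118), with no overlap. Of 13 LXR receptors, partners and other targets, 2 rose and 2 fell in primed cells, and 4 rose and 1 fell after NKG2D (median 0.40). Rxra, the partner with which LXR binds DNA, read 14.9, 15 and 18 CPM in primed knock-out, against 5.05, 3.98 and 3.84 CPM in primed wild type (1.90, SE 0.23, adjusted p = 3.78e-05). Arl4c, a small GTPase and known LXR target, rose by 0.49 in primed and 1.06 in stimulated knock-out cells. The 2 of this list that fell in primed cells were Lpcat3 (-0.54, adjusted p = 0.0121), a phospholipid-remodelling enzyme and known LXR target, and Tmem135 (-1.48, adjusted p = 0.0203). After NKG2D Lpcat3 also fell (-0.435, edgeR adjusted p = 0.0324). Smpdl3a was not called in primed cells and rose after NKG2D (0.706, edgeR adjusted p = 0.014). Srebf1, Abca7 and Scd2 were not called in either condition. Genes known as LXR targets thus included ones that fell, ones that rose and ones with no call.

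Some of these values could include reads of other genes. By the GENCODE M21 annotation, exons of 9 members overlap exons of another gene. The largest shares were 26.7% of the exon bases of Fdps, with Gm43738 (at most 42 counts in a library), and 18.3% of those of Fdft1, with Ctsb on the other strand (3921 to 13124 counts). Hmgcs1 shares 12.1% with Gm48342, at 60 counts or fewer, and Idi1 shares 9.22% with Gm48574, at 3 or fewer. Acat2 has a closely similar neighbour, Acat3, at 25 to 271 counts. Tm7sf2 shares 12.1% with Vps51 on the same strand (214 to 1325 counts), and itself held 27 to 161 counts in a library. Whether the counting used strand was not stated in the sources used. Fdft1, Tm7sf2 and Acat2 in particular are thus uncertain in level, Tm7sf2 and Acat2 whatever the use of strand.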

How the data were processed

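The deposited table holds expected counts, estimated reads per gene with no scaling between libraries. Of the values above 0, 30% were not whole (tolerance 1e-09), and they were rounded for the count test. The genome was mm10, and bcl2fastq, DRAGEN and edgeR were used, per the submitters' processing notes. Versions, settings and annotation were not stated in the sources used. Libraries came from a Takara-Clontech SMARTer kit, per the labels' protocols, and no molecular barcodes or batches are named. Of 55774 entries, repeats of 168 gene identifiers held equal values and 1 of each was kept. The authors' deposited comparison tables hold adjusted p-values beside log2 fold changes, per the file headers.

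The test was edgeR 4.0.16 (R 4.3.3) with quasi-likelihood dispersion, TMM factors and its expression filter, with 1 mean per group over all 18 libraries: 14864 genes, 12 residual degrees of freedom, 5.14 prior degrees of freedom and a common biological coefficient of variation of 0.234. P-values were adjusted by the Benjamini-Hochberg method across every tested gene, with a threshold of 0.05. SE and 95% intervals come from this fit. Depth ran from 14772350 to 34367582 counts per library, which limits precision most for genes with few reads such as Abca1. Log2 CPM levels added 2 counts. The alternatives were DESeq2 1.42.0, limma voom 3.58.1, RLE factors, no low-count filter, the compared libraries alone, replicate blocks, and leaving out each library. The procedure was tested on simulated data.

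All 29 members were tested. By rule, values per library are given for Hmgcs1, Idi1, Sqle, Insig1, Srebf2, Stard4, Abca1, Abcg1, Mylip, Soat1, Npc1 and the 3 members of smallest p in each genotype comparison, which added Insig2, Fdps and Sc5d, and the 2 genes of smallest p in each related list are named, except 1 that is not reported here. Dhcr7, Acat2 and Hsd17b7 were given per library, and Lpcat3, Tmem135 and Smpdl3a were named, after their values were seen. The members, lists and rules were chosen with earlier results of these data known. March6 and Spring1, as written in the lists, matched no gene name. Promoter sequences are from RefSeq (GRCm38.p6), and the 4 printed were chosen after the search.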

Additional observations from a re-analysis of the deposited data

Results flagged for a closer look

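Responses that differed between genotypes, by the difference of 2 differences in edgeR (knock-out minus wild type, log2), were found in 12 members for priming and 4 for NKG2D. For priming the values were 2.03 for Insig1, 1.53 for Idi1, 1.46 for Hmgcs1, 1.32 for Sqle, 1.21 for Cyp51, 0.92 for Hsd17b7, 0.66 for Acat2, 0.64 for Fdps, 0.60 for Sc5d, -0.70 for Insig2, -1.003 for Abcg1 and -2.91 for Abca1. For NKG2D they were 1.15 for Abcg1, -0.73 for Idi1, -0.86 for Hmgcs1 and -1.12 for Hsd17b7. These last 4 genes appear in both lists with opposite signs, and both comparisons contain the same primed libraries. Groups of 3 libraries were too small for a test of single outlying libraries.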

How the results depend on the processing

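No result tried changed direction past its threshold under any alternative. The count of members called ranged from 14 to 22 in the primed genotype comparison and from 13 to 20 after NKG2D. The count of 0 for fresh cells became 2 with no filter on low counts, 4 with limma voom and 3 with the fresh libraries alone, and was 0 without each library. The 4 members with a different NKG2D response became 9 with limma voom, 1 with the compared libraries alone, and 1 to 4 without 1 library (2 without primed wild-type replicate 1, 1 without NKG2D wild-type replicate 1). The 12 with a different priming response became 7 to 12 without 1 library (7 without fresh knock-out replicate 3). With the fresh libraries alone 5.86% of genes passed, and for the other settings the shares over all genes are not given here. These counts alone therefore do not show a change particular to the members. Synthesis minus export in primed knock-out cells was 5.57, and 5.94 with 0.5 counts added in place of 2. Apart from the fits with fewer libraries, the cause was not tested. Depth limits Abca1 most.

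Same-numbered libraries did not deviate together: correlations of their deviations ran from -0.146 to 0.1 between genotypes within a condition and from -0.127 to 0.131 between conditions of a genotype, so the numbers were not taken as pairs. With the number as a replicate block, 16 primed, 16 NKG2D and 0 fresh members passed, and Soat1 lost its primed call (0.0566, adjusted p). With a block within genotype the Insig2 rise on priming in wild type (0.0515) and the Srebf2 fall after NKG2D in knock-out (0.0591) did not pass, and with a replicate block within genotype 2 members had a different NKG2D response. The shares over all genes with these blocks are not given here.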
